A study of Homo sapiens with 2 samples.

Results

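Cytosines antisense to annotated exons were described in RNA bisulfite sequencing (RNA BS-Seq) of 2 human cell lines. A nuclear cytosine was taken when it was covered by at least 10 reads, lay in an exon of a GENCODE release 44 transcript of the opposite strand and lay in no exon of any transcript of its own strand. The rule used strand, position and coverage and no methylation value. It gave 3098 of the 1645163 covered nuclear cytosines in the MCF10A library and 10570 of 1517864 in the MDA-MB-468 library, which is 0.188% and 0.696%. Together the lines held 12476 different positions, of which 1192 were covered in both.

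The libraries came from MCF10A, a non-tumorigenic mammary epithelial line, and MDA-MB-468, a breast cancer line, each grown in culture with no treatment named in the labels, and there was 1 library of each with no replicates. RNA carrying a poly(A) tail was selected and treated with bisulfite at 60 degrees for 8 hours. The question put to the antisense cytosines is how their reads, which do not match the strand of the annotated transcript, behave in a method that reads m5C from resistance to conversion. With 1 library per line, every comparison between the lines compares these libraries and not the lines as conditions.

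Bisulfite deaminates cytosine to uracil, which is sequenced as T, while 5-methylcytosine (m5C) is protected and stays C. The methylation ratio of a site is the share of its reads that kept the C, so it also counts cytosines that the reagent failed to reach. Many human genes have natural antisense transcripts, RNAs made from the other DNA strand that overlap the exons or introns of a gene. In a library that keeps the strand, reads from such a transcript carry its own cytosines, which lie opposite the guanines of the sense transcript, and guanine is not changed by bisulfite. Whether these libraries kept the strand is not given in the sources used here, so a read assigned to the antisense strand need not come from an antisense RNA.

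The files began at a coverage of 5, and all nuclear positions fell on a cytosine of the stated strand of GRCh37. They held 76098976 counts in MCF10A and 90960018 in MDA-MB-468. Of the 13 marker genes listed for the check of the labels, KRT8, KRT18, KRT19, KRT5 and KRT17 had covered exon sites in both lines, and KRT14, TP63 and PTPRC had none in either. PECAM1 was not used here. EPCAM and CDH1, which mark epithelial cells, had none in MCF10A and 175 and 108 in MDA-MB-468, while the basal gene LAMB3 had 1207 in MCF10A and none in MDA-MB-468. COL1A1, a fibroblast collagen, had 269 sites at a median coverage of 14 in MDA-MB-468 and none in MCF10A, and its part in the results was not tested.

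The sequences below are windows of 25 nt on the antisense strand, written 5′ to 3′, with the antisense cytosines that passed the rule in at least 1 line in capitals and coordinates on GRCh37. Each is centred on the site with the highest summed coverage opposite its gene, except those of CTD-2328D6.1, MTND4P12 and NPM1P27, which are centred on the best covered called site with a ratio of at least 20%. The first set lies opposite genes whose antisense cytosines stayed almost wholly unconverted, and it is shown because these stretches carry the main pattern.
S100A9, chr1:153330850-153330874, minus strand: CtttgaattCCCCCtggttCagggt
IFI27, chr14:94582879-94582903, minus strand: tggCatggttCtCttCtCtgCaggg
SEC61G, chr7:54820052-54820076, plus strand: CtCaCaCttgttCaCCaatCtCtaa
SERF2, chr15:44086009-44086033, minus strand: tggtgggaCtggCtCCaggCaCaCa
EIF3D, chr22:36919273-36919297, plus strand: atttCtgCCtaaCCCCaaattgttt
AZGP1, chr7:99564732-99564756, plus strand: gaCtggtaagtgCCatttCCattgt
RPL13, chr16:89629495-89629519, minus strand: gttCCCaCgaaaCaCaCCaCgtgga
NEAT1, chr11:65211764-65211788, minus strand: CaCaCaCaCaCaCaCaCaCaCacac

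The second set lies opposite genes whose antisense cytosines were converted, and it is shown for contrast.
WNT5A-AS1, chr3:55522151-55522175, minus strand: CCCgCtCtCCCgCCCCtCggaCCCg
EGFR-AS1, chr7:55249529-55249553, plus strand: aaggtaagCaagCCaggCCaaggCC
MRNIP, chr5:179263263-179263287, plus strand: CttggCCCtttaCagggaaagCagg

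The third set is of windows opposite pseudogenes that hold sites at intermediate ratios, and it holds most of the sites that differed between the libraries.
CTD-2328D6.1, chrX:108297677-108297701, plus strand: CCCCCggtgtCCCCgCgaggggtCC
MTND4P12, chr5:134262756-134262780, plus strand: gaggatgtaagtCCgtgggCgaCta

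Each of these windows occurred once in the primary assembly, counting both strands and exact matches, except those of NEAT1 and SERF2. The CA repeat of NEAT1 occurred 312343 times and the SERF2 window 2 times, so the reads of these windows could come from other places.

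The antisense cytosines fell into 2 groups with little between them. In MCF10A, 1432 of 3098 (46.2%, 95% Wilson interval 44.5% to 48.0%) had a methylation ratio of at least 90% and are called unconverted here. A further 1486 (48.0%) had a ratio below 10% and are called converted, and 180 (5.81%) lay between. In MDA-MB-468 the unconverted sites were 855 of 10570 (8.09%, 7.58% to 8.62%), the converted ones 9086 (86.0%) and those between 629 (5.95%). The number of unconverted sites was thus larger in MCF10A, while MDA-MB-468 had many more converted ones. These classes were drawn on the measured ratio after the values were seen, so what follows by class is a description.

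Most unconverted sites kept C in every read, 1270 of 1432 for MCF10A and 777 of 855 for MDA-MB-468. Among cytosines on exons of their own strand, a ratio of at least 90% was held by 0.0349% of sites (MCF10A) and 0.0111% (MDA-MB-468). In introns it was held by 0.180% and 0.0445%, and in intergenic sequence by 1.47% and 2.23%. Although antisense cytosines were under 1% of the sites of each line, they held 66.9% of the 2141 nuclear sites at or above 90% in MCF10A and 58.7% of the 1457 in MDA-MB-468. The counting intervals treat sites as independent, which sites of one locus are not, so all intervals given here are too narrow and cover counting error only.

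**Figure D1:**
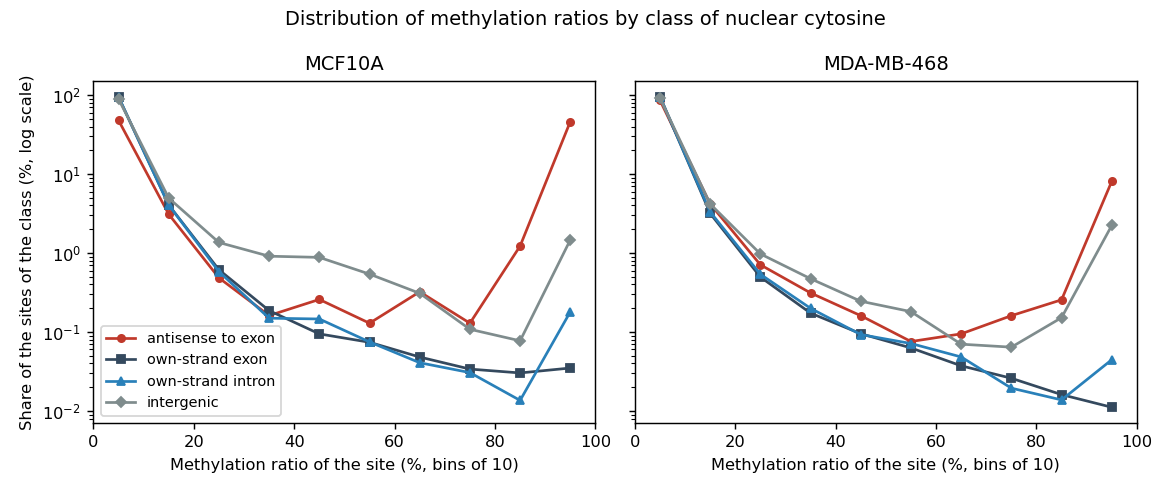
Share of sites (%, log scale) in each 10% bin of the methylation ratio for antisense cytosines, own-strand exon sites, own-strand intron sites and intergenic sites, with 1 library per panel. The antisense curve turns upward in the highest bin, to 46.2% of sites in the MCF10A library and 8.09% in the MDA-MB-468 library, where own-strand exon sites stand at 0.0349% and 0.0111%.

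Pooled over counts, 22.7% of 248953 antisense counts were unconverted in MCF10A (95% Wilson interval 22.5% to 22.8%) and 12.2% of 924579 in MDA-MB-468 (12.1% to 12.2%). The same rate was 1.94% and 1.76% on own-strand exons, 1.70% and 1.30% in introns, and 3.11% and 2.20% in intergenic sequence. The antisense rate depended on 1 pseudogene, CTD-2328D6.1, which took 63.7% of all antisense counts in MCF10A and 73.8% in MDA-MB-468. Without it the rate was 35.0% for MCF10A and 9.66% for MDA-MB-468, so the difference between the libraries was wider. The classes are therefore compared by counts of sites, and pooled rates are given per gene or beside site counts.

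A one-sided Fisher's exact test of each site against the rate of own-strand exons, with Benjamini-Hochberg adjustment over all covered nuclear sites at 0.05, called 1524 of 3098 antisense cytosines in MCF10A (49.2%), where 0.976% of all nuclear sites were called. In MDA-MB-468 it called 1002 of 10570 (9.48%), where 0.847% of all nuclear sites were called. By this test the calls were mostly sites that kept C in nearly all reads, since 94.0% and 85.3% of the called sites had a ratio of at least 90%. They came in runs. Another called antisense cytosine lay within 10 nt on the same strand for 1483 of the 1524 called sites in MCF10A (97.3%) and for 969 of the 1002 in MDA-MB-468 (96.7%).

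Coverage was low, with a median per antisense cytosine of 14 reads in MCF10A, and of 13 reads in MDA-MB-468. The 589 sites at the minimum of 10 reads in MCF10A were 45.3% unconverted, and the 782 sites just outside it, at 9 reads, were 38.1% unconverted. In MDA-MB-468 the 2241 sites at 10 reads were 5.89% unconverted and the 3068 at 9 reads 7.04%. The class shares were thus similar on either side of the minimum. The number of antisense cytosines was not, and went from 15755 at a minimum of 5 to 953 at a minimum of 20 in MCF10A and from 49947 to 2084 in MDA-MB-468.

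Unconverted and converted antisense cytosines rarely shared a locus. Sites of one strand were joined into a locus where gaps were at most 100 nt, which gave 220 loci for the one line and 623 for the other. In MCF10A, 98 loci with 1363 sites were unconverted at 90% or more of their sites, 113 with 1623 sites had no unconverted site, and 9 were mixed. In MDA-MB-468 the numbers were 61 loci with 854 sites, 559 with 9692 sites, and 3. The unconverted loci were short, with a median span of 44.5 nt in MCF10A and 47 nt in MDA-MB-468, and none was longer than 341 nt.

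Where unconverted loci came near an exon edge, they did not cross it. Within 100 nt of an unconverted locus in MCF10A there were 734 cytosines of the same strand outside the exons of either strand, at 49 loci, and none had 10 reads, which allows a share of up to 0.409%. Inside the opposite exon, 1363 of 5271 cytosines in a locus or within the same distance of it had 10 reads (25.9%). In MDA-MB-468 it was none of 483 outside, which allows up to 0.621%, and 854 of 3347 inside (25.5%). Each limit is 3 counts over the cytosines outside. It treats cytosines as independent, which those of one locus are not, so both limits are too low. The covered cytosines inside were the sites of the loci themselves, which the rule took by their 10 reads. Any further one within 100 nt would have joined its locus, so the shares inside and outside are not like for like. Even at 5 reads, 1 cytosine outside was listed in each line. Loci without an unconverted site crossed the edge in part, since 395 of 1142 cytosines outside exons had 10 reads in the MCF10A library (34.6%) and 1598 of 6823 in the MDA-MB-468 library (23.4%). By locus, no cytosine outside had 10 reads at 20 of the 47 such loci that reached an edge in MCF10A (42.6%) and 113 of the 250 in MDA-MB-468 (45.2%), against 49 of 49 and 28 of 28 unconverted loci.

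The classes also differed in whether the sense strand was read. At least 1 sense cytosine was listed within 25 nt of 80.0% of the unconverted sites of MCF10A and 81.1% of those of MDA-MB-468, against 12.9% and 12.7% of the converted sites. By locus, sense cytosines accompanied 88.8% and 91.8% of the unconverted loci and 14.2% and 17.5% of those with no unconverted site. Where sense reads were listed, the median ratio of antisense to mean sense coverage over all antisense cytosines was 0.573 in the MCF10A library and 0.828 in the MDA-MB-468 library. By class it was 0.596 for unconverted and 0.502 for converted sites of MCF10A, and 0.316 and 1.15 for those of MDA-MB-468. The sense cytosines beside unconverted sites were mostly converted. Their rate was below 10% for 810 of 1146 unconverted sites of MCF10A and 662 of 693 of MDA-MB-468, and beside converted sites for 189 of 191 and 1094 of 1152. The pooled rate beside unconverted sites, which the deepest genes weight most, was 2.58% for MCF10A and 1.73% for MDA-MB-468, and beside converted sites it was 1.503% and 1.51%.

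**Figure D2:**
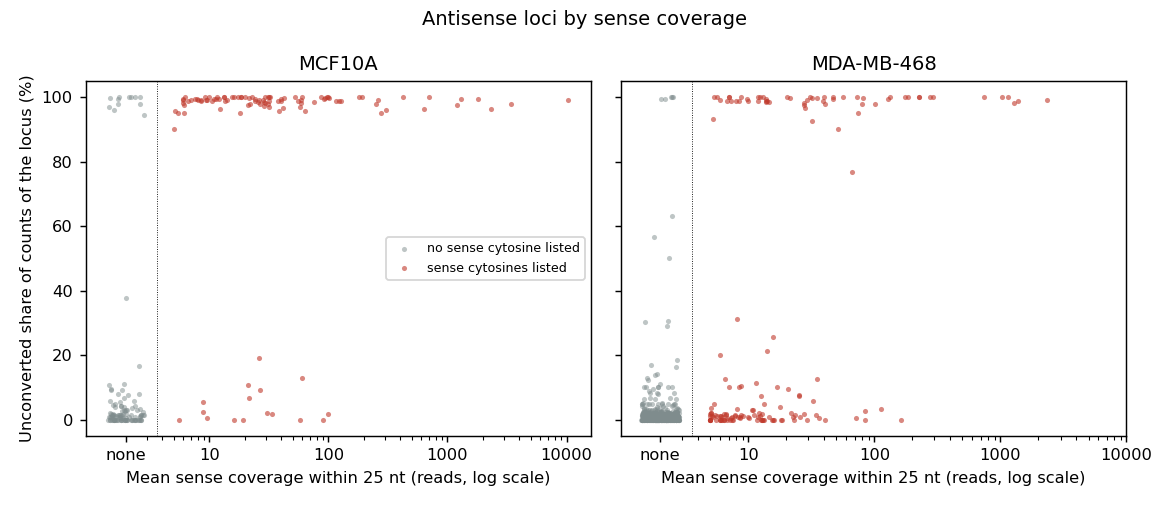
Unconverted share of the counts of each antisense locus (%) against the mean coverage of sense cytosines within 25 nt (reads, log scale), with loci that have no listed sense cytosine in a column at the left, 1 point per locus and 1 library per panel. Loci gather at the top and the bottom, and 87 of the 98 unconverted loci in MCF10A and 56 of the 61 in MDA-MB-468 have sense cytosines.

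Few sense sites beside unconverted antisense cytosines were themselves unconverted. Of the 1148 covered own-strand exon sites within 25 nt of an unconverted antisense cytosine in MCF10A, 1 had a ratio of at least 90% (0.0871%, against 0.0349% of all own-strand exon sites). In MDA-MB-468 it was none of 789, against 0.0111% of all. At these shares fewer than 1 such site would fall among so few. A difference from other exon sites at this ratio and at 10 reads was thus not detectable. With sense cytosines taken from 5 reads, the rate within 25 nt reached 90% beside 10 of 1146 unconverted sites of MCF10A. It did so beside 0 of 693 in MDA-MB-468, and beside 0 of 191 and 0 of 1152 converted sites. In MCF10A a sense rate below 10% was less frequent beside unconverted sites (810 of 1146) than beside converted ones (189 of 191). In MDA-MB-468 it was about as frequent beside each (662 of 693 and 1094 of 1152). Sites of one gene are not independent. In MCF10A the pooled sense rate was 44.7% beside 94 sites of S100A9, 59.5% beside 39 of IFI27 and 50.7% beside 49 of SEC61G. The difference between the classes was not tested.

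A CG dinucleotide has a cytosine on each strand at the same place, so it allows a direct comparison of the strands. In MCF10A, 69 unconverted antisense cytosines in 28 genes had a covered sense partner in the same CG. The antisense cytosine had a median ratio of 100% at a median coverage of 12, and its partner a median of 4.0% at a median coverage of 58. In MDA-MB-468, 39 pairs in 14 genes had a median of 100% on the antisense strand and 2.88% on the sense strand, at median coverages of 14 and 81. No sense partner reached 90% in either line, and the highest were 77.8% in the MCF10A library and 8.70% in the MDA-MB-468 library. The partner was below 10% in 51 of the 69 pairs in MCF10A and in each of the 39 in MDA-MB-468. Both strands were converted in the 39 pairs in MCF10A and 77 of the 79 in MDA-MB-468 whose antisense cytosine was converted.

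**Figure D3:**
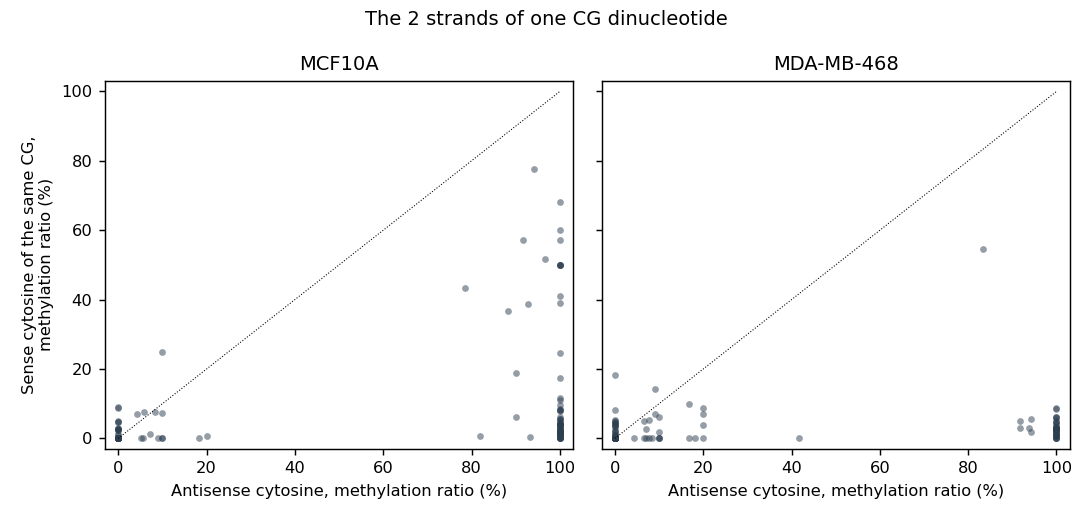
Methylation ratio (%) of the sense cytosine of a CG against that of its antisense cytosine, 1 point per CG covered by 10 or more reads on each strand, with the dotted line marking equal ratios. Unconverted antisense cytosines lie along the right edge, with sense medians of 4.0% in MCF10A and 2.88% in MDA-MB-468.

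Base composition differed between the classes in the same direction in each library. In the 51 nt around an unconverted antisense cytosine, on its own strand, G made up 17.0% of the bases in MCF10A and 16.3% in MDA-MB-468. Around converted ones it made up 32.1% and 32.2%, and around own-strand exon sites 29.8% and 30.8%. T showed the opposite order, with 29.2% and 28.7% around unconverted sites and 17.2% and 17.7% around converted ones. C differed less, at 28.8% and 29.4% against 32.5% and 31.6%. Single windows need not follow these means, and the printed SERF2 and IFI27 windows hold many G.

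The trinucleotide contexts followed the same split. In MCF10A the called share was highest for ACA (73.0% of 204 sites), TCT (71.2% of 257) and TCA (69.2% of 201), and lowest for GCG (22.7% of 163) and CCG (23.4% of 158). In MDA-MB-468 ACA (21.2% of 452) was highest and ACG (3.67% of 245) lowest. On own-strand exons the order was another, and CCG had the highest called share, at 2.32% (MCF10A) and 1.91% (MDA-MB-468). The test of a difference in order was not run, since neighbouring sites share reads.

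The unconverted sites lay mainly opposite protein-coding genes. In MCF10A, 1327 of 1902 antisense cytosines opposite protein-coding genes were unconverted (69.8%) and 68 of 939 opposite long noncoding RNA genes (7.24%). In MDA-MB-468 the shares were 794 of 7004 (11.3%) and 37 of 2523 (1.47%). The 68 long noncoding sites came from NEAT1 (48) and MIR100HG (20), and NEAT1 alone gave the 37. Of the NEAT1 sites, 25 and 22 lay in the locus of the CA repeat. These long noncoding shares thus describe single genes and not the gene type. Opposite processed pseudogenes, MCF10A had 37 of 105 sites unconverted (35.2%), while MDA-MB-468 had 24 of 451 (5.32%). By part of the opposite exon, 3′UTR sites were unconverted in 75.3% of 889 for MCF10A and 24.0% of 1561 for MDA-MB-468. CDS sites were unconverted in 77.2% of 834 and 9.53% of 4166. Sites opposite a 5′UTR were mostly converted, with 9.42% of 138 in 7 genes (MCF10A) and 3.11% of 707 in 38 genes (MDA-MB-468) unconverted. NAV2 alone held 56 of the 138, none of them unconverted.

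Position relative to genes of the antisense strand itself also separated the classes. Sites in an intron of an own-strand gene were unconverted in 13.9% of 1044 in the MCF10A library and 1.41% of 5881 in the MDA-MB-468 library. Sites within 5000 nt downstream of an own-strand gene were unconverted in 43.8% of 511 and 5.85% of 1948, and those within 5000 nt upstream in 34.4% of 465 and 10.9% of 605. Sites with no own-strand gene in reach were unconverted in 83.8% of 1078 and 27.7% of 2136. The unconverted class was thus most frequent where no own-strand gene was annotated.

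The genes are described in the order of their antisense sites, first those with the most called sites. S100A9, a calcium-binding protein of inflammation and part of calprotectin, had the most in each line. In MCF10A its 108 antisense cytosines were all called, at ratios from 78.6% to 100%, a median coverage of 19 and a pooled rate of 98.2% (95% Wilson interval 97.5% to 98.7%). In MDA-MB-468 its 102 sites were all called, at 87.5% to 100%, a median coverage of 14 and a pooled rate of 99.1% (98.5% to 99.5%). They covered 2 loci, opposite the CDS and the 3′UTR, with no own-strand gene in reach. The 7 capitals of the printed S100A9 window had 25 to 30 unconverted of 26 to 31 reads in MCF10A and 21 to 23 of 21 to 23 in MDA-MB-468.

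The sense strand of S100A9 behaved differently between the libraries. In MCF10A, where sense coverage was low, 112 sense exon sites had a median coverage of 25 and 48.1% of their 3040 counts were unconverted. In MDA-MB-468, 144 sense exon sites had a median coverage of 1590 and 1.81% of their 275894 counts were unconverted. The antisense coverage did not follow this difference, at medians of 19 and 14. In bulk RNA, fewer cells with a transcript and less of it per cell cannot be told apart.

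IFI27, an interferon-induced protein, showed the same arrangement. It had 52 antisense sites in MCF10A, with ratios of 83.3% to 100% at a median coverage of 15.5, and 7 in MDA-MB-468, each at 100% with a median coverage of 10. Its sense exon sites numbered 39 at a median coverage of 11 and a pooled rate of 71.4% in MCF10A, and 283 at a median coverage of 70 and 1.40% in MDA-MB-468. The sense rate was high in the library with few sense reads for this gene too.

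SEC61G, a subunit of the channel that moves proteins into the endoplasmic reticulum, had 49 antisense sites in MCF10A at 85.2% to 100% and 16 in MDA-MB-468 at 82.4% to 100%. Its 50 sense exon sites in MCF10A were 57.6% unconverted at a median coverage of 25.5, and its 61 in MDA-MB-468 were 3.49% unconverted at a median coverage of 88. AZGP1, the secreted zinc-alpha-2-glycoprotein, had 50 antisense sites at 90% to 100% in MCF10A, where no sense site was covered by 10 reads. In MDA-MB-468 it had 34, also at 90% to 100%, beside 246 sense exon sites at a median coverage of 108 and a rate of 1.59%. Unconverted antisense reads of AZGP1 were thus listed in the library without covered sense exon sites and in the one with them.

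In other genes the sense strand was well covered and converted in both libraries. SERF2, a small protein known for promoting amyloid aggregation, had 42 antisense sites in MCF10A, each at 100%, and 54 in MDA-MB-468 at 91.7% to 100%, while its sense exon sites were 1.58% and 1.48% unconverted. EIF3D, a subunit of the translation initiation factor eIF3, had 37 at 93.3% to 100% and 33 at 87.5% to 100%, with sense rates of 2.10% and 2.07%. RPL13, a protein of the large ribosomal subunit, had 15 at 90% to 100% and 34 at 92.3% to 100%, with sense rates of 1.12% and 1.20%. In these 3 genes no antisense ratio came near a sense rate.

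B2M, the light chain of MHC class I, had 45 antisense sites at 69.2% to 100% for MCF10A and 11 for MDA-MB-468, each at 100%, with sense rates of 4.16% and 3.15%. COX6C, a subunit of cytochrome c oxidase, had 32 at 93.8% to 100% and 29 at 94.7% to 100%, with sense rates of 6.32% and 2.41%. NEAT1, the long noncoding RNA that scaffolds paraspeckles, had 49 at 87.8% to 100% in MCF10A and 38 at 86.7% to 100% in MDA-MB-468, with sense rates of 2.18% and 2.55%. The sites of the CA repeat printed above had up to 94 reads in MCF10A and 20 in MDA-MB-468.

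**Figure D4:**
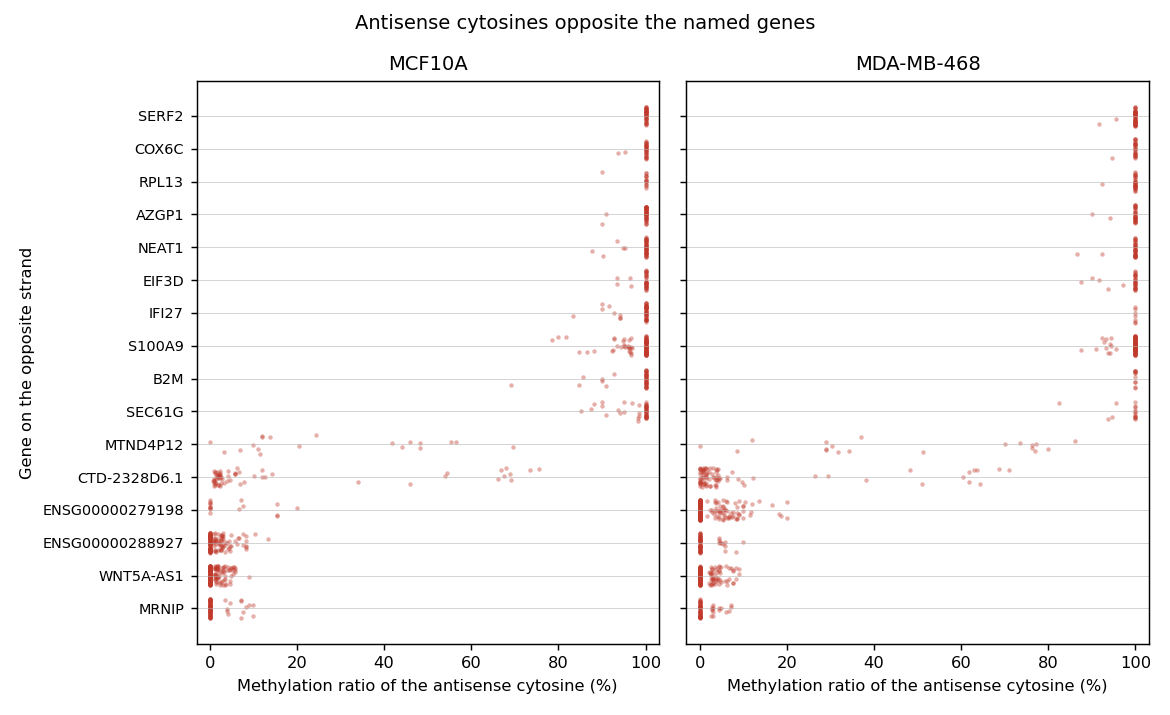
Methylation ratio (%) of each antisense cytosine opposite the named genes with covered sites in both libraries, 1 point per site with random vertical jitter, genes ordered by pooled rate and 1 library per panel. The rows of 9 protein-coding genes and NEAT1 sit between 69.2% and 100%, the pseudogenes MTND4P12 and CTD-2328D6.1 spread between, and the other rows stay at or below 20%.

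Genes with the most antisense cytosines overall were largely other genes, and their sites were converted. WNT5A-AS1, an antisense RNA gene inside the gene of the Wnt ligand WNT5A, led in MCF10A. The 185 sites on its opposite strand lay in an intron of WNT5A, at a median coverage of 51, ratios of 0 to 9.09% and a pooled rate of 0.992% (95% Wilson interval 0.811% to 1.21%). In MDA-MB-468 it had 165 sites at a median coverage of 27, 0 to 9.09% and 1.46% (1.14% to 1.87%). The strand of WNT5A itself was thus read and converted, and no site of the annotated antisense RNA was covered. In MCF10A the rate lay below the 1.94% of own-strand exons, while in MDA-MB-468 its interval held their rate of 1.76%.

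SH3RF3-AS1, upstream of the ubiquitin ligase gene SH3RF3, had 136 sites at a pooled rate of 1.38% in MCF10A and none in MDA-MB-468. ENSG00000288927, a long noncoding RNA gene, had 145 at 1.48% and 63 at 1.02%. MRNIP had 81 sites at 1.02% and 66 at 1.04%, in an intron of SQSTM1, the gene of the autophagy receptor p62. ENSG00000256001 had 60 at 0.814% and none, and NAV2, a neuron navigator gene, 56 at 1.88% and none. Among these 5 genes 1 site was called, opposite ENSG00000288927 in MCF10A, where 0.976% of all nuclear sites were called. None was called in MDA-MB-468, where 0.847% of all nuclear sites were.

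In MDA-MB-468 the leading genes had few or no antisense sites in MCF10A. SLC16A8, a monocarboxylate transporter, had 424 sites at a pooled rate of 1.90%, and SLC26A1, a sulfate transporter, had 261 at 0.803%, in an intron of the lysosomal enzyme gene IDUA. EGFR-AS1 had 213 sites at 0.918%, which lay in introns of EGFR, the epidermal growth factor receptor. None of these 3 genes had an antisense site in MCF10A at 10 reads. In MDA-MB-468, where 0.847% of all nuclear sites were called, 1 of their sites was called, opposite SLC16A8.

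ENSG00000279198, in an intron of the tropomyosin gene TPM4, had 257 sites at 1.99% in MDA-MB-468 and 16 at 5.33% in MCF10A. ENSG00000215156, a processed pseudogene in an intron of GUSBP18, had 256 at 1.03%. GPT, the gene of alanine aminotransferase, had 239 at 1.32%, and INTS11, the catalytic subunit of the Integrator complex, had 191 at 1.86%, downstream of PUSL1. No sense exon site was covered for SLC16A8, SLC26A1, GPT or EGFR-AS1 in either line, while INTS11 had 398 sense exon sites in MDA-MB-468 at a rate of 1.43%.

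Cytosines opposite annotated antisense RNA genes were converted. Opposite genes whose names carry -AS lay 488 antisense cytosines in MCF10A at 15 genes. None was called, where 0.976% of all nuclear sites were called, and none was unconverted. In MDA-MB-468 there were 1169 at 32 genes, 9 called and none unconverted. The 9 made up 0.770% of these sites, so calls were no more frequent here than among all nuclear sites of that library (0.847%). Pooled rates opposite the -AS genes were 1.16% and 1.36%. Antisense cytosines that lay in introns of an own-strand -AS gene numbered 10 in MCF10A, all opposite CTBP1, a transcriptional corepressor, and all unconverted at a pooled rate of 99.1%. In MDA-MB-468 they numbered 377 in 12 genes with 10 unconverted, led by SLC9A3-AS1 with 118 at 1.84% and SLFNL1-AS1 with 62 at 0.281%.

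Gene groups were followed by their antisense sites and by their share of these beside their share of own-strand exon sites. The cytosolic ribosomal protein genes, 86 in number, had 60 antisense sites in MCF10A, opposite RPL13, RPL23, RPL37 and RPL8, and 34 in MDA-MB-468, opposite RPL13. Each of these sites was unconverted and called. The group made up 1.94% of antisense sites in the MCF10A library and 0.322% in the MDA-MB-468 library, against 0.435% and 0.464% of exon sites. The 71 translation factor genes had 37 in MCF10A, opposite EIF3D, and 34 in MDA-MB-468, opposite EIF3D and EEF2, with 37 and 33 unconverted, which was 1.19% and 0.322% of antisense sites against 0.733% and 0.706% of exon sites. The 50 proteasome genes had 19 and 18, opposite PSMD7 and PSMD10, with 17 unconverted in each line, 0.613% and 0.170% of antisense sites against 0.372% and 0.370% of exon sites.

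The 50 keratin genes, which build the intermediate filaments of epithelia, differed by member. In MCF10A they had 31 antisense sites opposite KRT19 and KRT7, of which 30 were unconverted, and in MDA-MB-468 they had 63 opposite KRT8, none of which was unconverted. Keratins made up 1.001% and 0.596% of antisense sites against 0.133% and 0.382% of exon sites. Histone genes had none in MCF10A and 19 in MDA-MB-468, opposite H2AC6 and H3-3B, with 16 unconverted. The 28 heat shock genes had none and 29, opposite HSPB7, none unconverted. Histone genes were 0.180% of antisense sites in MDA-MB-468 against 0.336% of exon sites, and heat shock genes 0.274% against 0.143%. The 515 zinc finger genes had 25 antisense cytosines in the MCF10A library and 66 in the MDA-MB-468 library, none unconverted or called. Of all nuclear sites 0.976% and 0.847% were called, so these are too few sites to show a lower share. Mitochondrial ribosomal protein genes had no antisense site in either line. Zinc finger genes made up 0.807% and 0.624% of antisense sites against 0.860% and 0.911% of exon sites. The groups thus split by gene, and within most of them a single gene gave the majority of sites.

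Sites covered in both lines nearly always kept their class. Of the 1192 shared antisense cytosines, 527 were unconverted in both and 566 converted in both, 1136 had the same class (95.3%), and none went from one extreme to the other. The 527 were 36.8% of the unconverted sites of MCF10A and 61.6% of those of MDA-MB-468, and lay opposite 34 genes. Their median coverage was 18 in the MCF10A library and 16 in the MDA-MB-468 library.

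At sites with at least 10 reads in each library, antisense coverage at these genes had a narrower range between the libraries than sense coverage. Of the 34 genes, 25 had at least 5 shared unconverted sites and listed sense cytosines in both lines. The ratio of antisense coverage in MDA-MB-468 to that in MCF10A had a median of 0.846 and ran from 0.129 to 1.45, and 22 of the 25 genes were within 2-fold. The ratio of sense coverage had a median of 1.07 and ran from 0.169 to 161, and 14 were within 2-fold. For IFI27 the median sense coverage beside the antisense sites was 7.5 for MCF10A and 1207 for MDA-MB-468, while the antisense coverage was 17 and 10. For S100A9 it was 28.8 and 1887, with antisense coverages of 19 and 14. MGP, a secreted inhibitor of calcification, had 6.58 and 275, with antisense coverages of 11 and 10. The 3 genes beyond 2-fold in antisense coverage were NPM1P27 (236 and 30.5), NEAT1 (92.5 and 20) and TMSB4X (33 and 15), all lower in MDA-MB-468. Coverage was not scaled to library size here, and sites enter only above 10 reads, while sense coverage was taken from 5 reads, so the range of antisense coverage is narrower at its low end.

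**Figure D5:**
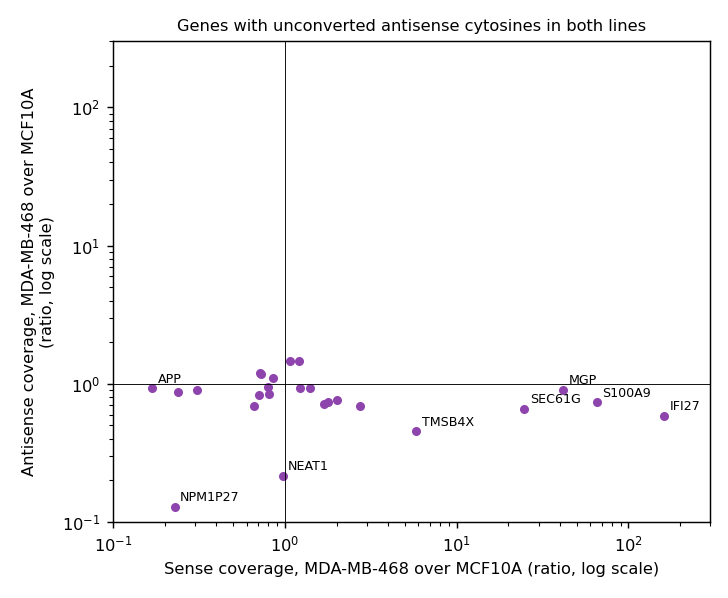
Median antisense coverage in MDA-MB-468 over that in MCF10A against the same ratio for sense coverage (both on log scales), 1 point per gene for the 25 genes with at least 5 cytosines unconverted in both libraries and listed sense cytosines. The points spread from 0.169 to 161 along the sense axis and from 0.129 to 1.45 along the antisense axis.

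Fisher's exact test, two-sided and run site by site with p-values adjusted over the 836347 nuclear sites covered in both libraries, found 22 of the 1192 shared antisense cytosines to differ (1.85%), where 0.0942% of all shared sites differed. Of these 5 were higher and 17 lower in MDA-MB-468, where 0.0158% and 0.0784% of all shared sites were. All 22 lay opposite 3 pseudogenes, 14 at CTD-2328D6.1, 4 at MTND4P12 and 4 at another whose values are not given here. No site opposite a protein-coding gene was among them. Without CTD-2328D6.1 the count was 8.

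At CTD-2328D6.1 antisense coverage reached 5583 reads in the MCF10A library and 26340 in the MDA-MB-468 library, so small differences passed the test. The 61 sites in MCF10A had ratios of 0.664% to 75.5% and a pooled rate of 15.6%, and the 85 in MDA-MB-468 ratios of 0 to 71.0% and a rate of 13.05%. The ratios varied along the pseudogene in the same way in each library. The 12 cytosines of its printed window were at 7.02% to 75.5% in MCF10A and 6.37% to 71.0% in MDA-MB-468, while the 6 cytosines of the window chrX:108297738-108297762 were at 0.664% to 1.69% and 0.537% to 1.25%. The largest difference was at position 108297724, where 526 of 4137 reads were unconverted for MCF10A (12.7%) and 4697 of 15999 for MDA-MB-468 (29.4%, adjusted p = 2.00e-111, Fisher's exact test). Windows of this pseudogene occurred up to 10 times in the assembly, so its reads may be shared with other copies.

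MTND4P12, a nuclear pseudogene of the mitochondrial ND4 gene in an intron of PCBD2, had 19 antisense sites in each line. Their pooled rate was 32.8% in MCF10A (95% Wilson interval 30.8% to 34.9%) and 58.2% in MDA-MB-468 (55.4% to 60.9%). At position 134262775 of chromosome 5, 77 of 168 reads were unconverted in the MCF10A library (45.8%) and 90 of 117 in the MDA-MB-468 library (76.9%, adjusted p = 0.000238, Fisher's exact test). At position 134262768 it was 104 of 216 (48.1%) and 115 of 151 (76.2%, adjusted p = 0.000114, Fisher's exact test). Unlike the class of unconverted sites, 16 of the 19 sites in MCF10A and 17 of the 19 in MDA-MB-468 lay between the extremes. The other sites, 3 and 2, were converted. Reads of the mitochondrial gene itself could have been placed here, which was not tested.

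One further site stood out by its coverage among unconverted cytosines. Opposite NPM1P27, a pseudogene of the nucleolar protein NPM1, 238 of 238 reads were unconverted in MCF10A (100%, 98.4% to 100%) and 31 of 31 in MDA-MB-468 (100%, 89.0% to 100%). Its window, poor in G, is a CAT repeat that occurred 15 times in the assembly.
NPM1P27, chr5:93018887-93018911, plus strand: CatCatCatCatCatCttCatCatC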

How the data were processed

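Per the methods of the study, the authors trimmed the reads, mapped these to hg19 and ran MeRanTK to call cytosines. The processing notes of the labels list Trim Galore and Bismark, and versions are not given in the sources used here. The deposited files give, for each cytosine, whole-number counts of unconverted and converted reads without normalization, from a coverage of 5. No molecular identifiers were stated, so reads may include PCR copies.

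Sites were placed on GENCODE release 44 transcripts mapped to GRCh37, all exons taken. The background was the summed unconverted over all counts of own-strand exon sites with at least 10 reads. Fisher's exact test was one-sided for each site against the background and two-sided for shared sites between libraries, both with Benjamini-Hochberg adjustment over all nuclear sites. Shares carry 95% Wilson intervals. Sense cytosines were those listed on the other strand within 25 nt. The members, gene lists and tests were chosen with earlier results of these data known, and the ratio classes, loci and exon edges were defined after the values were seen.

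Genes named were, per line, the 8 with the most antisense sites and the 8 with the most called ones, the 3 best covered sites, the 3 best covered called sites with a ratio of at least 20%, and the 5 largest differences at 20 reads or more. Others (such as MGP, TMSB4X and the genes of the groups) were named after their values were seen. Where an exon of several genes lay opposite, protein-coding genes came before long noncoding ones. Alternatives changed the test and its background, the minimum of coverage and of ratio, the transcripts, the distance to exons, the window and single genes, and the pair that left out CTD-2328D6.1 or pseudogenes was chosen after seeing the data. Median coverage was 14 and 13 reads per antisense cytosine, which limits single ratios. The code was tested on simulated counts. Software was pysam 0.24.0, numba 0.67.0, pandas 2.3.3, scipy 1.17.1, numpy 2.4.6 and matplotlib 3.10.9 under Python 3.11.15. Mitochondrial sites and values of the Y chromosome are not given here. Some named items are not reported here.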

Additional observations from a re-analysis of the deposited data

How the results depend on the processing

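No paired analysis was possible because there is 1 library per line. Leaving out sites in repeats was not run, since the reference used here marks none in lower case. The number of called antisense cytosines stayed within 1.5 times of 1524 in MCF10A and 1002 in MDA-MB-468 under 20 of the 24 settings tried over both lines, and moved with the coverage minimum, to 366 and 310 at 20 reads and 6977 and 3838 at 5 reads. The number of antisense cytosines moved to 953 and 2084 at 20 reads, 15755 and 49947 at 5 reads, and 1902 and 7004 opposite protein-coding genes. The pooled rate moved under every setting. In MCF10A it was 18.7% at 20 reads, 27.6% at 5 reads, 48.5% as a mean of site ratios, 33.3% with basic transcripts, 74.3% opposite protein-coding genes, 23.5% without sites near own-strand exons, 23.5% without the gene with the most antisense sites, 35.0% without CTD-2328D6.1 and 35.0% without pseudogenes. In MDA-MB-468 these were 12.5%, 11.4%, 10.1%, 8.63%, 14.9%, 12.4%, 12.2%, 9.66% and 10.8%. The interval is narrow, so 12.24% without the gene with the most antisense sites, against 12.16%, also counts as a move. The ratio of antisense to sense coverage was 0.646 and 0.951 within 100 nt, and 0.770 and 0.727 for sites with at least 20 reads. The count of 22 sites that differed fell to 8 with basic transcripts and 8 without CTD-2328D6.1. At a nominal p under 0.05, 57 of the 1192 shared sites differed. The cause of these moves was not tested, and a median of 14 and 13 reads limits what single sites show.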
